A study of Mus musculus with 32 samples.

Results

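Wild-type livers that served as controls for different tRNA knockouts formed 2 sets, and here the sets were compared with each other at all 401 tRNA loci of the tables. Set A held 3 livers, replicates 1 and 3 of batch 1 and replicate 24 of batch 2, which are the wild-type columns of the liver table for mice lacking tRNA-Phe-GAA-2-1. Set B held the 3 livers that are the wild-type columns of the table for livers labelled as lacking tRNA-Phe-GAA-3-1, all of batch 3, and its columns carry no sample number, so they are called a, b and c. These 6 livers are 6 of the 7 wild-type livers and 6 of the 32 libraries of the series. All came from male C57BL/6N mice with no deletion and no treatment. Mice of the study were 10 weeks old. Accessibility was measured by ATAC-seq, which labels accessible DNA with a transposase, and a value is a count of short, nucleosome-free fragments over a tRNA gene and its flanks. The knockout livers set beside them were 4 of tRNA-Phe-GAA-1-1-/- mice (Phe11, batches 1 and 2), 3 of tRNA-Phe-GAA-2-1-/- mice (Phe21, batch 1) and 3 labelled tRNA-Phe-GAA-3-1-/- (Phe31, batch 3), each on the same strain background.

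tRNA genes are transcribed by RNA polymerase III from promoter elements that lie inside the gene, and most mammalian tRNAs come from several gene copies. Copies with the same mature sequence form an isodecoder family, so measurements of the mature RNA cannot tell which copy of a family was used. Families with the same anticodon read the same codons. Open chromatin at each locus is read as a copy-specific sign of use, since polymerase III genes in use are held free of nucleosomes.

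The 6 libraries were of like depth. Over the 401 loci set A held 9287 reads (replicate 1), 7895 (replicate 3) and 9739 (replicate 24), and set B held 7943 (a), 8568 (b) and 9329 (c), with overlapping ranges (exact two-sided permutation p = 0.8, where 0.1 is the smallest p that 3 against 3 allows). Between 60 and 79 loci had no read in a library. The 3 livers labelled Phe31 held 8, 7 and 8 reads at tRNA-Phe-GAA-3-1, the gene they should lack, and 2, 0 and 0 at tRNA-Phe-GAA-1-1, so their label goes against the data and they are called "labelled Phe31" throughout. Both loci had reads in all 6 wild-type livers. Set A and set B also differ in batch, so set and batch cannot be told apart, and in whole liver neither can fewer cells with an open locus and less opening per cell. The tables hold tRNA loci alone, so the tissue was not checked against marker genes. The labels do not say that each library came from a separate animal. The paper counts its liver ATAC-seq controls as mice, without naming the libraries. The p-values here measure the spread between these libraries.

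Livers of 1 set differed from each other about as much as counting alone gives, and livers of different sets differed by more. For each pair of libraries, reads were compared over loci with at least 10 reads in the pair, and the chi-square divided by its degrees of freedom is 1 where only counting noise separates them. It was 1.15 for replicates 1 and 3, 1.15 for 1 and 24, and 0.744 for 3 and 24. Within set B it ran from 0.922 to 1.08. The 9 pairs with 1 liver from each set lay between 2.19 and 2.59, above all 6 pairs within a set. Replicates 3 and 24 differed by less than the sampling noise (lower-tail chi-square p = 0.00111), so results with both averaged and counted as 1 sample stand beside the main count. The remaining wild-type liver, replicate 22 of batch 2, gave 0.440 with replicate 1 (lower-tail chi-square p = 5.66e-15), 1.03 and 1.01 with replicates 3 and 24, and between 2.398 and 2.56 with set B. Replicates 1 and 22 thus differed by less than the sampling noise, and whether they are 1 library is not known. Replicate 22 is in neither set. With replicate 22 added and averaged with replicate 1 as 1 sample, 56 loci were called, of which 50 were among the 56 of the main comparison.

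The 5 copies of the tRNA-Phe-GAA-1 family show best what the comparison can see, because their 73-nt genes are identical and only the flanks tell them apart. The windows below, read from GRCm39, hold 50 nt on each side in lower case and the gene in capitals, 5′ to 3′ on the coding strand, for 2 of the 3 copies whose mean was lower in set B (1-1 and 1-5, the called ones, and not 1-2) and the 2 whose mean was higher (1-3 and 1-4).
tRNA-Phe-GAA-1-1: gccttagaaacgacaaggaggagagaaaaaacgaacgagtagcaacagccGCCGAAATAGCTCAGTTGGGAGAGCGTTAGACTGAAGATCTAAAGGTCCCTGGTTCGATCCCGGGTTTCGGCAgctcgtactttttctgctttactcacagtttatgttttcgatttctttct
tRNA-Phe-GAA-1-3: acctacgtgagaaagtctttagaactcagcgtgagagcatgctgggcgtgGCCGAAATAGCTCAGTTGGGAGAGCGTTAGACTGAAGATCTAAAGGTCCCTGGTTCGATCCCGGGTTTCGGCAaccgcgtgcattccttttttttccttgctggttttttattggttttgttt
tRNA-Phe-GAA-1-4: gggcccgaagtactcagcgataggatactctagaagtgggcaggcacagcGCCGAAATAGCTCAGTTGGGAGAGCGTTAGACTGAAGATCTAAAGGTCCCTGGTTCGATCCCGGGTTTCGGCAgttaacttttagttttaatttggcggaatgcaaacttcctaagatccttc
tRNA-Phe-GAA-1-5: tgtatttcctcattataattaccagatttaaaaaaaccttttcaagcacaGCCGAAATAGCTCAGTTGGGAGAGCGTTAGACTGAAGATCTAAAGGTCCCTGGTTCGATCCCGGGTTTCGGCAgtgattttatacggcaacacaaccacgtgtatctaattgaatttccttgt
Copy 1-1 lies on the minus strand at chr5:125483119-125483191, copy 1-3 on the plus strand at chr13:21345575-21345647, copy 1-4 on the minus strand at chr14:118326937-118327009 and copy 1-5 on the plus strand at chr19:11979600-11979672. The GENCODE annotation places copy 1-3 inside the long non-coding RNA gene Gm32298 and the other 3 between genes. The 50 nt before copy 1-5 had a GC content of 26%, the lowest of the 7 tRNA-Phe loci, against 48% for 1-1, 52% for 1-3, 58% for 1-4 and 62% for 1-2. The 50 nt after copy 1-5 had 36%, with 1-3 the highest of the 7. Over the whole window tRNA-Phe-GAA-2-1 was lowest, at 39.3% against 40.5% for 1-5. Whether GC content bears on the difference was not tested. The other 2 tRNA-Phe genes differ inside the gene, tRNA-Phe-GAA-2-1 by C3T and G70A and tRNA-Phe-GAA-3-1 by G57A, counted from 1 at the 5′ end with the family 1 base first.

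Among the tRNA-Phe genes, which deliver phenylalanine to the UUU and UUC codons, copy 1-5 gave the clearest difference. It held 46, 46 and 51 reads in set A and 11, 17 and 18 in set B, or 41.8, 49.2 and 44.5 normalised reads (counts divided by 1 size factor per library) against 12.4, 17.7 and 17.1. The highest set B liver was below every set A liver by far more than either set's own range. The log2 difference of set B minus set A was -1.48 ± 0.20 (SE, n = 3 and 3, limma, adjusted p = 8.85e-06), which left set B at 34.9% of set A. It was called with each library left out in turn and in every alternative tried. Replicate 22, scaled together with them, had 47.4 normalised reads and lay among the set A livers, 1 of which it may repeat.

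Copy 1-1, the gene deleted in Phe11 mice, was also lower, with 17, 17 and 26 reads in set A and 13, 8 and 8 in set B. Its normalised reads of 15.4, 18.2 and 22.7 against 14.6, 8.35 and 7.61 only just did not overlap, and the log2 difference was -0.86 ± 0.30 (adjusted p = 0.0333). The call of copy 1-1 was lost without replicate 3, 24, b or c (adjusted p = 0.0566, 0.185, 0.102 and 0.105) with 3 and 24 averaged (adjusted p = 0.092), with no minimum (0.0599) and with DESeq2 (0.152). Copy 1-2 had 28.2, 22.5 and 30.5 normalised reads against 25.9, 12.5 and 15.2, overlapping sets and an adjusted p of 0.0509. It was called without replicate 3 (adjusted p = 0.0344) and without a (0.0118), and also with edgeR (0.043), voom (0.0365), pseudocount 10 (0.0486), equal totals (0.0293), loess scaling (0.0287), replicate 22 added and averaged with 1 (0.0315) and no new scaling (0.000113).

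The other members had higher means in set B or did not separate. Copy 1-3 had 19.1, 15.0 and 14.8 normalised reads in set A and 24.8, 27.1 and 21.9 in set B, sets that did not overlap, with a log2 difference of 0.57 ± 0.23 and an adjusted p of 0.0539. It was called without replicate 1 (adjusted p = 0.0367), with loess scaling (0.0426) and with limma without trend (0.0406). Copy 1-4 had 26.4, 23.5 and 25.3 against 36.1, 27.1 and 30.4 (log2 0.30 ± 0.19, adjusted p = 0.245). tRNA-Phe-GAA-3-1 had 21.8, 20.3 and 20.9 against 18.03, 20.9 and 13.3 (adjusted p = 0.382). tRNA-Phe-GAA-2-1 had 1, 3 and 3 reads against 1, 1 and 1, below the mean of 10 normalised reads needed for a test.

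**Figure D1:**
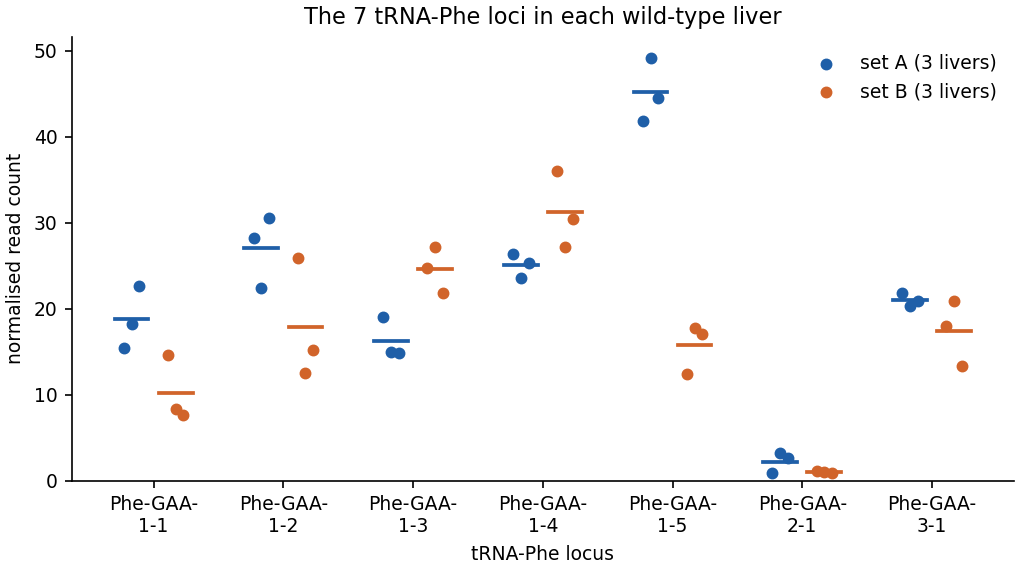
Normalised read count (vertical axis) at each of the 7 tRNA-Phe loci (horizontal axis) in the 3 livers of set A (blue) and the 3 of set B (orange). Points are livers and lines are means of 3. At copy 1-5 set A sits between 41.8 and 49.2 and set B between 12.4 and 17.7, while the means of copies 1-3 and 1-4 are higher in set B.

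As a share of all tRNA-Phe reads, copy 1-5 took 27.2%, 32.4% and 27.6% in set A and 9.32%, 15.5% and 16.1% in set B. It held rank 1 among the 7 loci in all set A livers and rank 3, 4 or 6 in set B livers. Copy 1-4 took 17.2%, 15.5% and 15.7% in set A against 27.1%, 23.6% and 28.6% in set B, and copy 1-3 took 12.4%, 9.86% and 9.19% against 18.6%, 23.6% and 20.5%. For these 3 copies the sets did not overlap, and each reached the smallest exact permutation p that the design allows, 0.1. Shares of 1 total are tied to each other, so a lower share of 1 copy raises the rest. The summed normalised reads over the 7 loci were 153.6, 151.9 and 161.3 in set A and 133.0, 114.8 and 106.5 in set B, or 75.9% of set A. Without copy 1-5 the sums were 111.8, 102.7 and 116.9 against 120.6, 97.0 and 89.4, which overlapped.

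Over all tRNA genes, 194 of 401 loci had a mean of at least 10 normalised reads and were tested. Of these, 56 (28.9%) differed between the wild-type sets at a Benjamini-Hochberg adjusted p below 0.05 (limma), and are called below, 32 higher in set B (16.5%) and 24 lower (12.4%). At 185 of the 194 both sets had a mean of at least 10, and 53 of these (28.6%) were called. With replicates 3 and 24 averaged as 1 sample, 49 were called, of which 46 were among the 56. With limma without trend 37 were called, and with DESeq2 22. The sets did not overlap at 55 of the 56, the exception being tRNA-Lys-TTT-1-5, and did not overlap at 88 of all 194 (45.4%). The median absolute log2 difference was 0.31, and 6 called loci had changed at least 2-fold. With libraries scaled to equal totals, 59 were called, 26 higher and 33 lower, so the split between directions depended on the scaling, though each of the 56 kept its own direction. Joined with no new scaling, the deposited values gave a median log2 difference of -0.73, beside 0.09 after scaling. The 207 loci not tested held 6.33% of the reads in set A and 4.85% in set B. Replicate 22 lay on the side of set A, beyond all set B livers, at 51 of the 56, which is no independent count, since it differed from replicate 1 of set A by less than the sampling noise.

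**Figure D2:**
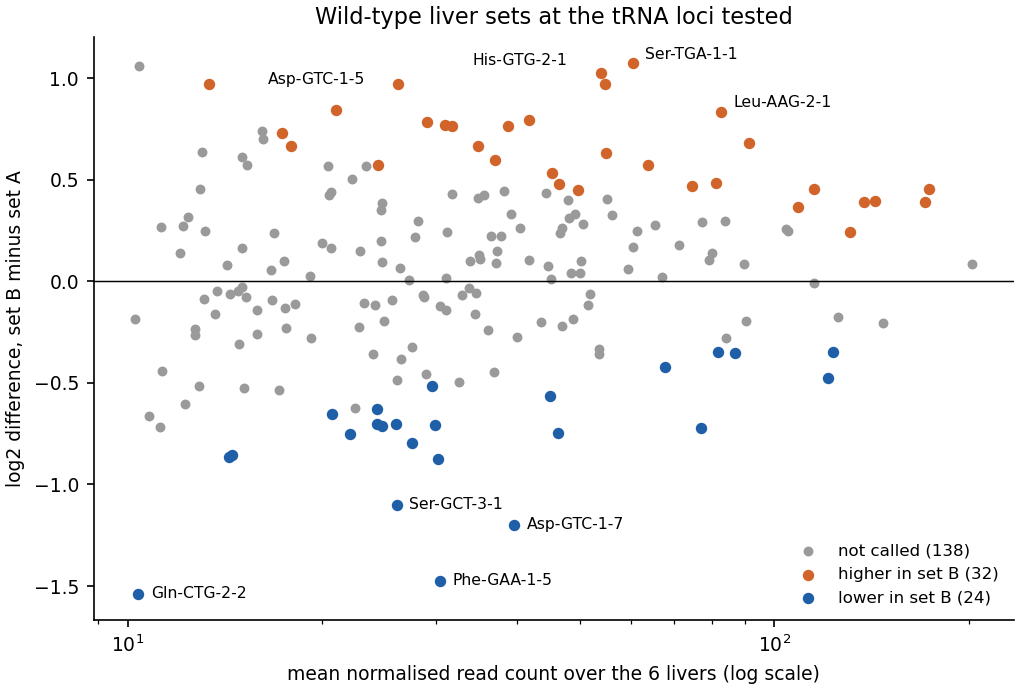
Log2 difference of set B minus set A (vertical axis) against the mean normalised read count over the 6 livers (horizontal axis, log scale) for the 194 loci tested. Orange points are the 32 loci called higher in set B, blue points the 24 called lower and grey points the 138 not called. Called loci of both directions span the whole range of levels.

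The same test inside each deposited liver table gives counts to set beside that number. Phe11 livers differed from their wild types at 26 of 207 loci (12.6%), Phe21 livers at 27 of 201 (13.4%) and livers labelled Phe31 at 19 of 178 (10.7%). The first 2 comparisons use the set A livers and the last uses set B, so they share libraries with the comparison of the sets, and only the counts stand side by side. Numbers of libraries differed between these comparisons. The livers labelled Phe31 held 4719 to 5576 reads, fewer than every wild-type liver, so the shares are not on a like basis. Whether the shares differ was not tested.

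Loci that were lower in set B belonged to several amino acids. tRNA-Gln-CTG-2-2 (glutamine) had the most negative difference, with 16, 18 and 16 reads against 4, 6 and 4 and a log2 value of -1.54 ± 0.39 (adjusted p = 0.00416). Its mean was 15.9 normalised reads in set A and 4.86 in set B, so it reached the minimum of 10 through set A alone and was not tested when a set A liver was left out. With no minimum its adjusted p was 0.00336. tRNA-Asp-GTC-1-7 (aspartate) held 64, 51 and 61 reads in set A and 20, 29 and 20 in set B, and fell to 43.3% (log2 -1.20 ± 0.19, adjusted p = 1.59e-05). tRNA-Ser-GCT-3-1, the lone copy of a serine family, held 45, 26 and 45 reads against 12, 18 and 17, at 44.9% of set A (adjusted p = 0.000307). In each of these 3 the fullest set B liver was below the emptiest set A liver.

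Other loci lower in set B had smaller differences. tRNA-His-GTG-2-4 had 31.8, 42.8 and 42.7 normalised reads against 21.4, 27.1 and 15.2 (log2 -0.87, adjusted p = 0.00283). tRNA-Arg-TCG-2-1 had 32.7, 34.2 and 38.4 against 16.9, 23.996 and 19.0 (log2 -0.79, adjusted p = 0.00402). tRNA-Ala-AGC-3-1 had 12.7, 22.5 and 21.8 against 10.1, 10.4 and 8.56 (log2 -0.86, adjusted p = 0.0308), and its call was lost without any 1 library but replicate 1 (adjusted p from 0.0528 without b to 0.169 without 24), with 3 and 24 averaged (0.131) and with no minimum (0.056). Its set B mean of 9.71 was itself below 10. tRNA-Ala-TGC-4-1, another alanine gene, had 31.8, 27.8 and 24.4 against 14.6, 17.7 and 16.2 (log2 -0.75, adjusted p = 0.0105). With DESeq2 the calls of tRNA-Arg-TCG-2-1 (adjusted p = 0.0606), tRNA-Ala-AGC-3-1 (0.118) and tRNA-Ala-TGC-4-1 (0.11) were lost.

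Among the loci higher in set B, tRNA-Ser-TGA-1-1 came first, with 33, 36 and 55 reads in set A and 64, 92 and 82 in set B (log2 1.07 ± 0.17, adjusted p = 1.59e-05). It thus moved against the serine gene named above. tRNA-His-GTG-2-1 (histidine) had 36.4, 32.1 and 37.5 normalised reads against 75.5, 67.8 and 75.1 (log2 1.02 ± 0.15). tRNA-Ala-TGC-3-1 had 43.6, 26.7 and 41.0 against 78.9, 67.8 and 70.4, or 195% of set A, whereas tRNA-Ala-TGC-4-1 with the same anticodon fell. tRNA-Leu-AAG-2-1 (leucine) had 55.4, 71.7 and 51.5 against 101.4, 107.5 and 109.3 (log2 0.84 ± 0.13, adjusted p = 1.59e-05). All 4 kept their call without any 1 library.

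The aspartate genes tRNA-Asp-GTC-1-5 (17.3, 17.1 and 17.4 normalised reads against 39.4, 32.3 and 33.3) and tRNA-Asp-GTC-2-1 (30.0, 26.7 and 34.0 against 46.2, 56.3 and 57.0) were higher in set B, at adjusted p = 0.000537 and 0.0011. tRNA-Gln-CTG-2-3 had 12.7, 5.35 and 8.72 against 14.6, 17.7 and 20.9 (log2 0.97, adjusted p = 0.0263), and its call was lost without replicate 3, 24, b or c (adjusted p from 0.08 to 0.113) and with 3 and 24 averaged (0.0648). Its set A mean was 8.93, below 10, and with no minimum its adjusted p was 0.0425. tRNA-Pro-CGG-1-1 (proline) had 13.6, 26.7 and 24.4 against 36.1, 37.6 and 36.1 (log2 0.79, adjusted p = 0.00717). Its adjusted p was 0.0555 without replicate 1 and 0.0514 with limma without trend. tRNA-Leu-TAG-2-1 had 20.9, 18.2 and 19.2 against 29.3, 32.3 and 26.6 (log2 0.57, adjusted p = 0.0335). Its call was lost without replicate 3, 24, a or b (adjusted p from 0.0565 to 0.106), with 3 and 24 averaged (0.0834), with no minimum (0.071) and with equal totals (0.0616). With DESeq2 the calls of tRNA-Gln-CTG-2-3 (adjusted p = 0.123), tRNA-Pro-CGG-1-1 (0.0757) and tRNA-Leu-TAG-2-1 (0.213) were lost.

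Grouped by amino acid, 20 of 22 groups held at least 1 called locus, and the shares of called loci stand beside 28.9% over all loci tested. Of 18 leucine loci tested, 6 were called higher in set B, none lower and 12 not at all, with log2 differences from -0.33 to 0.84 and a median of 0.30, beside 0.09 over all loci. Isoleucine had 3 of 9 lower, none higher and a median of -0.20. Phenylalanine had 2 of 6 lower and the lowest median, -0.45. Asparagine had 3 of 6 lower and 1 higher (median -0.32). Glutamate, with 3 of 10 higher and 1 lower, and arginine, with 3 of 17 in each direction, had calls both ways. The elongator methionine genes (5 tested, median 0.10) held no called locus, and nor did the initiator methionine genes, which start every protein (5 tested, median 0.17).

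**Figure D3:**
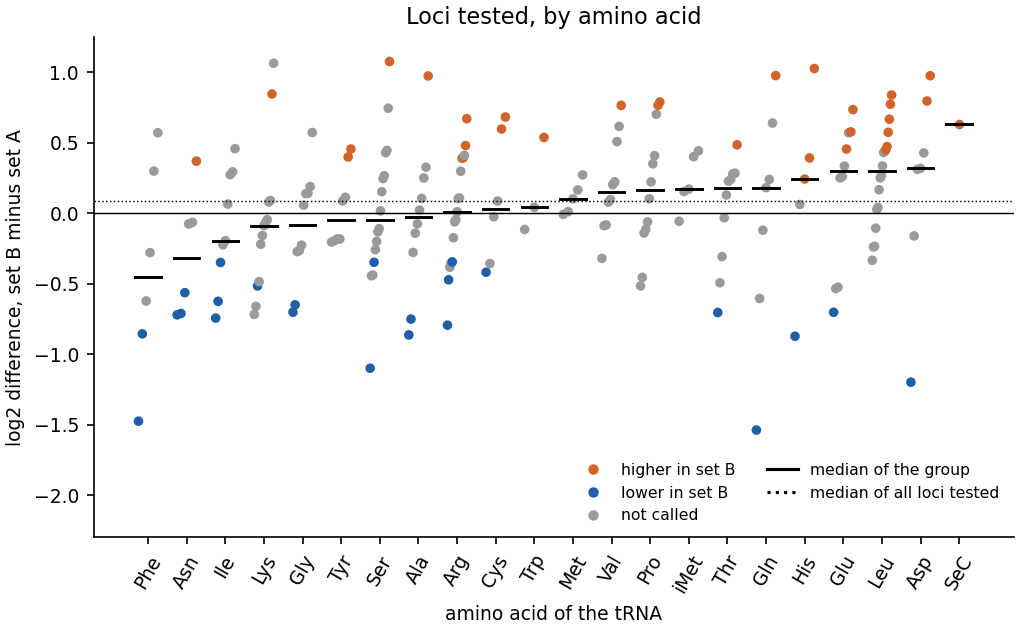
Log2 difference of set B minus set A (vertical axis) for the 194 loci tested, grouped by amino acid and ordered by the group median (black bars). Orange points were called higher in set B, blue points lower and grey points neither, and the dotted line is the median over all loci, 0.09. Leucine loci include 6 orange and no blue points, and phenylalanine has the lowest median.

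The 5 tested initiator methionine loci had log2 differences between -0.06 and 0.44. tRNA-iMet-CAT-1-1 was closest to a call, with 39.99, 42.8 and 40.1 normalised reads against 67.6, 48.0 and 49.4 (adjusted p = 0.0638), and it was called with voom (0.0485) and with the minimum at 30 (0.0274), as well as with replicate 22 added as a separate sample (0.0276) but not with it averaged with replicate 1. Their family sum was 181, 166 and 179 normalised reads in set A and 210, 196 and 209 in set B, which passed the test as 1 value (log2 0.23 ± 0.08, adjusted p = 0.0249). tRNA-SeC-TCA-1-1, the single gene for the tRNA of selenocysteine, had 49.1, 38.5 and 40.1 against 57.5, 84.5 and 59.9 (log2 0.63 ± 0.17, adjusted p = 0.00493). Without set B liver b its log2 difference was 0.46 and its adjusted p 0.0674.

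In 6 of the 38 isodecoder families with at least 2 tested copies, copies were called in both directions. Calls over all loci were 32 higher and 24 lower, and whether 6 is more than a random mix gives was not tested. The number of such families was 4 without replicate 24 or with 3 and 24 averaged, 3 without liver b and 2 with DESeq2. It was 3 with the minimum at 30 and 9 with replicate 22 as a separate sample. tRNA-His-GTG-2 was among the families each of these times, and tRNA-Asp-GTC-1 each time but with the minimum at 30. In the histidine family tRNA-His-GTG-2, copies 2-1 and 2-3 rose and copy 2-4 fell, and copy 2-3 had 159.0, 150.8 and 135.2 normalised reads against 189.3, 196.1 and 197.8. Copy 2-3 lost its call with limma without trend (adjusted p = 0.0676). Copy 2-2 was called higher as well (log2 0.24, adjusted p = 0.0494), but no longer without replicate 1, 24, a, b or c (adjusted p from 0.0636 to 0.364). It was called in only 5 of 19 alternatives. Its call was also lost with no minimum (0.0953), equal totals (0.19), loess scaling (0.413), limma without trend (0.258) and DESeq2 (0.289), among others. In tRNA-Asp-GTC-1, copy 1-7 held 27.1% of the family's normalised reads in set A and 12.0% in set B, and copy 1-5 held 8.45% and 17.5%. The sum of that family did not differ (log2 -0.03 ± 0.08, adjusted p = 0.849).

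In tRNA-Gln-CTG-2 the called copies both passed the minimum through their higher set alone. Copy 2-2 went from 27.2% to 8.93% of the family and copy 2-3 from 15.6% to 33.2%. The log2 difference of the sum was -0.11 (adjusted p = 0.578). In the asparagine family tRNA-Asn-GTT-3, copies 3-1, 3-6 and 3-8 fell and copy 3-7 rose, and copy 3-8 had 87.2, 102.7 and 97.7 normalised reads against 64.2, 62.6 and 47.5. Copy 3-1 was not called without 24 or b (adjusted p = 0.0607 and 0.0681), nor copy 3-6 without a (adjusted p = 0.0565). Copy 3-7 had 92.7, 92.0 and 99.4 against 136.4, 118.9 and 113.1, and it went from 29.0% to 43.0% of the family. As the one copy called higher there, it lost its call with loess scaling (log2 0.23, adjusted p = 0.0818), limma without trend (0.0945) and DESeq2 (0.11). The sum of the asparagine family fell to 87.4% (adjusted p = 0.0139).

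The cysteine family tRNA-Cys-GCA-3 had 72.7, 65.2 and 71.5 normalised reads against 121.7, 114.8 and 101.7 at copy 3-1 (adjusted p = 4.27e-05), and 70.9, 80.2 and 82.0 against 66.5, 56.3 and 51.3 at copy 3-3 (adjusted p = 0.023). The latter was not called without 24, b or c (adjusted p from 0.0693 to 0.105) or with 3 and 24 averaged (0.0569). In the glutamate family tRNA-Glu-CTC-1, copy 1-8 fell to 60.02% (adjusted p = 0.0112) and copy 1-5 rose to 172% (adjusted p = 0.0333), the latter not without 24, b or c (adjusted p from 0.0831 to 0.149) or with 3 and 24 averaged (0.0632). Reads that fall wholly inside identical copies cannot be placed, so the values of copies rest on fragments that reach the flanks.

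**Figure D4:**
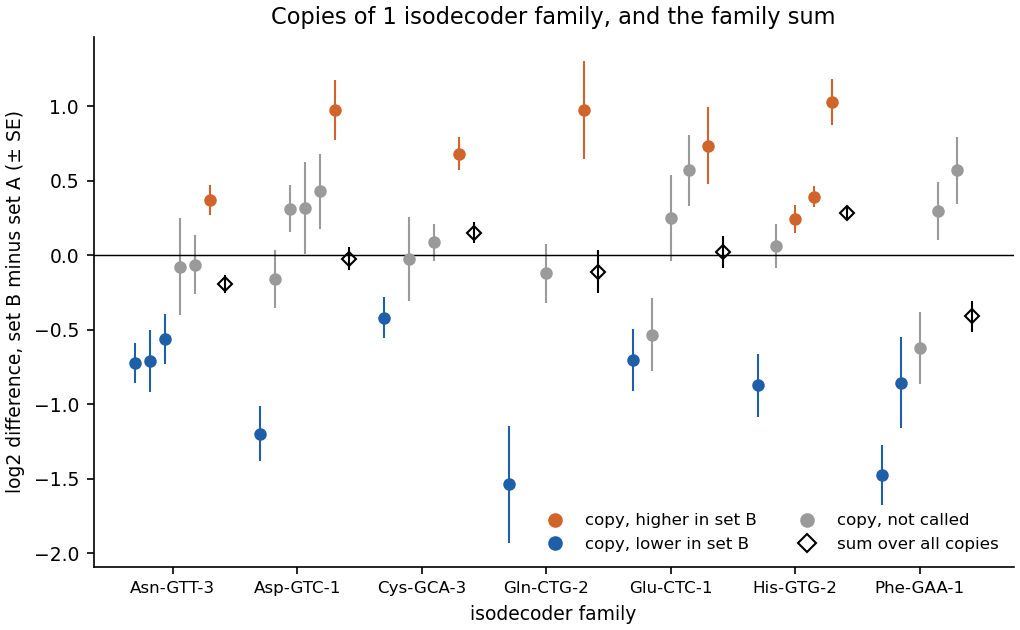
Log2 difference of set B minus set A ± SE (vertical axis) for the tested copies of the 6 isodecoder families with called copies in both directions, and of tRNA-Phe-GAA-1 (horizontal axis). Filled circles are copies, orange where called higher in set B, blue where called lower and grey where not called, and open diamonds are sums over all copies. In tRNA-Asp-GTC-1, called copies lie at -1.20 and 0.97 and the sum at -0.03.

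Of 38 families with at least 2 tested copies, 20 had a called copy, and the sum was called in 10 of these. Loci of families with 1 tested copy were called at 19 of 65, and those of families with more at 37 of 129.

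Summed by family, 32 of 108 sums were called (29.6%), 21 higher in set B (19.4%) and 11 lower (10.2%). The lowest were tRNA-Ala-AGC-5 (16.4, 21.4 and 13.95 normalised reads against 5.63, 6.26 and 10.5, adjusted p = 0.0356), whose 3 copies were each too low to test alone and whose set B mean of 7.45 was below 10 (adjusted p = 0.0287 with no minimum), and the single-copy families tRNA-Ser-GCT-3 and tRNA-Arg-TCG-2. The highest were the single-copy families tRNA-Ser-TGA-1, tRNA-Ala-TGC-3 and tRNA-Leu-AAG-2. The sum of tRNA-Phe-GAA-1 had 130.9, 128.4 and 137.8 against 113.8, 92.9 and 92.2 (log2 -0.41 ± 0.10, adjusted p = 0.00273). Without replicate 3, 20 family sums were called.

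Summed by anticodon, 22 of 47 sums were called (46.8%), 14 higher in set B (29.8%) and 8 lower (17%). The lowest was tRNA-Arg-TCG, with 194.5, 192.5 and 207.6 normalised reads against 135.2, 135.6 and 137.9 (log2 -0.54 ± 0.08, adjusted p = 6.75e-06), followed by tRNA-Phe-GAA (log2 -0.40, adjusted p = 0.00172) and tRNA-Ser-GCT (log2 -0.33, adjusted p = 0.000712). The highest were tRNA-Ser-TGA (log2 0.71, adjusted p = 0.000731), tRNA-SeC-TCA (0.63) and tRNA-Leu-AAG. The last had 191.8, 203.2 and 186.6 normalised reads against 291.9, 284.8 and 290.9 over its 5 copies, with narrow sets far apart (log2 0.58 ± 0.07, adjusted p = 8.15e-08). Without replicate 24, 13 anticodon sums were called.

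Knockout livers gave a second comparison of batch 3 with batches 1 and 2 that shares no library with the wild-type sets. The 3 livers labelled Phe31 (batch 3) were compared with the 7 Phe11 and Phe21 livers, and genotype label and batch cannot be told apart in that comparison. Of 199 loci tested, 44 (22.1%) were called, 14 higher in batch 3 (7.04%) and 30 lower (15.1%), and the batches did not overlap at 41 (20.6%). All 56 loci called between the wild-type sets were tested there, and 48 (85.7%) differed in the same direction, against 81 of the 137 loci (59.1%) that were not called in wild type. That included all 24 loci lower in set B and 24 of the 32 higher ones. Over all loci tested, the median log2 difference was -0.08 in the knockouts and 0.09 between the sets. The counts by direction were not corrected for this offset. Without tRNA-Phe-GAA-1-1, tRNA-Asp-GTC-1-7 and tRNA-Ala-TGC-4-1, which are low in Phe11 livers, 45 of 53 (84.9%) had the same direction, 21 of 21 of the lower ones. In the same direction, 21 were called in both, which is 37.5% of the wild-type calls and 47.7% of the knockout calls. Across 193 loci tested in both, Pearson's r was 0.68, as a description over loci that share libraries and depth.

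Copy 1-5 of tRNA-Phe had the most negative call in the knockout livers, with a log2 difference of -1.84 ± 0.15 (adjusted p = 2.46e-08). In reads per 10000 over the loci it had 51.9 to 61.9 in the Phe11 livers and 51.1 to 61.8 in the Phe21 livers, near the 49.5 to 58.3 of set A. The livers labelled Phe31 had 12.7 to 18.3, near the 13.8 to 19.8 of set B. tRNA-Arg-TCG-2-1 (-1.72), tRNA-Thr-AGT-1-2 (-1.43), tRNA-His-GTG-2-4 (-1.32) and tRNA-Arg-TCG-1-1 (-0.59) were also called lower in both comparisons, and tRNA-Leu-AAG-2-1 (0.79), tRNA-SeC-TCA-1-1 (0.82), tRNA-Leu-AAG-1-2 (0.86) and tRNA-Val-TAC-1-3 (0.89) higher in both. These 8 values are log2 differences in the knockout livers.

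Several of the largest wild-type differences had smaller values in the knockouts. tRNA-Ser-TGA-1-1 had a log2 difference of 0.42 (adjusted p = 0.0637), tRNA-His-GTG-2-1 0.31 (adjusted p = 0.203), tRNA-Asp-GTC-1-5 0.05 (adjusted p = 0.839) and tRNA-Asp-GTC-2-1 0.10 (adjusted p = 0.742). At tRNA-Asp-GTC-1-5, set A had 20.3 to 20.5 reads per 10000, and every other group of livers, set B included, lay between 32.5 and 47.3, apart from replicate 22 at 17.8. At 199 loci tested for a difference between the 2 batch contrasts, 2 passed, tRNA-Lys-TTT-1-5 and tRNA-Arg-CCT-2-1.

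In the plot of both batch contrasts, loci lower in set B fall in the lower left.

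**Figure D5:**
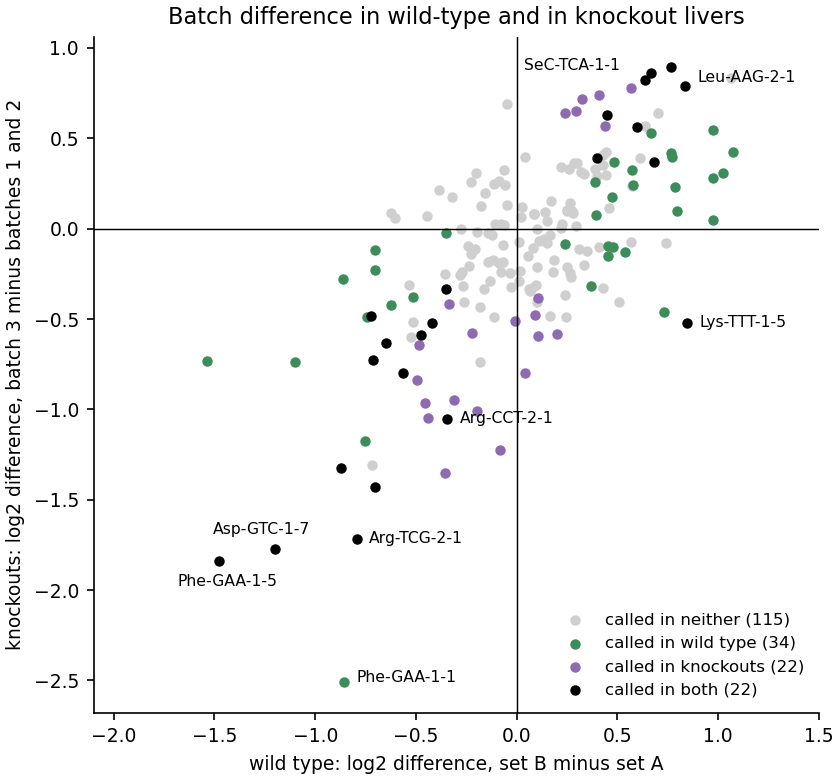
Log2 difference of batch 3 minus batches 1 and 2 in knockout livers (vertical axis) against set B minus set A in wild-type livers (horizontal axis), 1 point per locus, for 193 loci. Black points were called in both, green points in wild type, purple points in knockouts and light grey points in neither. Of the 22 loci called in both, 21 lie at the lower left or upper right, and tRNA-Lys-TTT-1-5 lies in the lower right.

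At 3 loci named above that are low in Phe11 livers, set B levels lay between those of set A and of these knockouts. tRNA-Asp-GTC-1-7 had 62.6 to 68.9 reads per 10000 in set A, 21.4 to 33.8 in set B, 11.8 to 19.2 in Phe11, 80.8 to 90.6 in Phe21 and 6.09 to 10.6 in the livers labelled Phe31. tRNA-Ala-TGC-4-1 had 28.8 to 37.7 in set A, 16.4 to 19.8 in set B, 5.36 to 9.26 in Phe11, 38.1 to 50.5 in Phe21 and 3.59 to 8.48 in the labelled Phe31 livers. tRNA-Phe-GAA-1-1 had 18.3 to 26.7 in set A, 8.58 to 16.4 in set B, 1.26 to 5.36 in Phe11, 28.4 to 31.2 in Phe21 and 0 to 3.59 in the labelled Phe31 livers. At all 3, every set B liver had more reads per 10000 than every Phe11 liver. The batch difference of the knockouts at these loci compares the livers labelled Phe31 with a mix of Phe11 livers, which are low there, and Phe21 livers, which are not, so it says nothing separate of batch.

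The share of reads at low loci depended on where the limit was set. The 201 loci with the lowest means in the 10 knockout livers held 6.14%, 5.66% and 5.51% of reads in set A and 4.14%, 4.05% and 4.39% in set B, which did not overlap (exact p = 0.1, the smallest possible). The 201 loci lowest in wild-type brain held 8.34%, 8.41% and 8.92% in set A and 7.42%, 7.18% and 7.76% in set B, also without overlap (exact p = 0.1). The 101 loci lowest in the knockout livers held a mean of 0.699% in set A and 0.801% in set B (exact p = 0.3), a difference in the other direction. With the 194 tested loci in 4 bins of 48 or 49 by mean level, from lowest to highest, the median log2 difference was -0.06, -0.10, 0.14 and 0.24. Called loci in the top bin were 16 higher and 6 lower, and in the next to lowest bin 5 higher and 12 lower. The order of the most accessible loci was partly kept, with tRNA-Tyr-GTA-4-1 first in both sets at means of 196 and 208 normalised reads. tRNA-Arg-TCG-1-1 went from rank 5 to rank 17 and tRNA-Arg-CCT-2-1 from rank 6 to rank 15.

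At 5 tested loci the log2 differences were closest to 0. tRNA-Met-CAT-1-1, an elongator methionine gene, had 116.3, 109.1 and 121.2 normalised reads in set A and 117.2, 114.8 and 112.2 in set B (log2 -0.01 ± 0.09). tRNA-Ala-AGC-2-2 had 64.5, 77.0 and 58.4 against 60.9, 77.2 and 64.7. tRNA-Arg-TCT-3-1, tRNA-Met-CAT-1-2 and tRNA-Ser-AGA-2-3 had log2 differences of 0.01, 0.01 and 0.02, each with an SE of 0.18 to 0.21.

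The authors' consensus peak lists on GRCm38.p6 pool wild-type and knockout livers, so they describe tables and not the sets alone. Of 408 nuclear tRNA genes of RefSeq, 190 lay under a peak of the Phe21 liver list and 176 under one of the labelled Phe31 list, and all 176 were among the 190. Copy 1-5 (chr19:12002236-12002308 in this build) lay under a peak of 540 nt in the first list and 394 nt in the second. Copy 1-1 lay under a peak of 2024 nt in the first and none in the second, whose libraries include the 3 livers labelled Phe31. tRNA-Phe-GAA-2-1 lay under none in either list.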

How the data were processed

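ATAC-seq fragments over tRNA genes were analysed in wild-type livers, 3 of set A and 3 of set B, with 11 other livers and wild-type brain beside them. The authors trimmed reads (Trim Galore 0.6.4, cutadapt 1.18), mapped them with Bowtie2 2.4.1 (mouse build GRCm38.p6), removed duplicates (Picard 2.23.8) and low mapping qualities, kept nucleosome-free fragments and counted them with featureCounts 2.0.0 over high-confidence GtRNAdb genes with flanks. The deposited signal values are counts that the authors divided by 1 DESeq2 (1.30.0) size factor per library within each table. Reads that cannot be placed between identical copies are removed by the mapping-quality minimum, so copy values rest on reads that reach beyond them. Deposited peak lists (Genrich 0.6, DiffBind 3.0.8) carry a score or a peak width that was not used, only positions. Columns with the authors' fold changes, p-values and s-values were not used.

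Whole reads were recovered from each column (100% of values whole within 0.001 read), which held 7895 to 9739 reads in the 6 livers, and replicates 1, 3 and 24 gave the same reads in both tables that hold them. The 6 libraries were joined by locus and scaled anew with median-of-ratios size factors (DESeq2 1.42.0, R 4.3.3). Loci with a mean of at least 10 normalised reads were tested on log2(normalised reads + 1) with limma 3.58.1 with trend, and p-values were adjusted over all loci tested. Fold changes are on that scale, which understates those of low loci. Sums by family and anticodon and the knockout batch comparison were fitted the same way. Shares and totals had exact two-sided permutation tests (scipy 1.17.1). The fit was tested on simulated data. Groups came from the sample labels.

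Named were the 8 non-overlapping called loci with the largest differences in each direction, the 7 tRNA-Phe loci, called copies of families that moved both ways, the top 3 families and anticodons in each direction, 6 loci named in earlier knockout comparisons, iMet and selenocysteine loci, and the 5 smallest differences. Other loci named beside the knockout livers, by rank or as an exception, were chosen after their values were seen. Members and lists were chosen with earlier results of these data known. Alternatives were other pseudocounts (0.1, 10), filters, scalings (TMM, equal totals, loess), tests (edgeR 4.0.16, voom, DESeq2, limma without trend), replicate 22 added and each library left out. Averaging replicates 3 and 24, and the joint fit of both batch contrasts, were added after seeing the data. Gene sequences came from GRCm39 with the GENCODE annotation.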

Additional observations from a re-analysis of the deposited data

Results flagged for a closer look

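The batch contrast, as batch 3 minus batches 1 and 2, differed between knockout and wild-type livers at 2 of 199 loci in a joint limma fit over 16 livers (34 loci at an unadjusted p below 0.05). At tRNA-Lys-TTT-1-5, a lysine gene, the log2 difference was 0.81 in wild type and -0.52 in knockouts, so that the contrasts differed by -1.32 (adjusted p = 0.0385). In reads per 10000 over the loci it had 25.8, 15.2 and 12.32 in set A, 8.08 in replicate 22, 34.0, 23.3 and 33.2 in set B, and 14.3 to 18.3 in the livers labelled Phe31. Sets A and B overlap there, since replicate 1 of set A exceeds liver b of set B. At tRNA-Arg-CCT-2-1, an arginine gene, the contrasts differed by -0.66 (adjusted p = 0.0385), with -0.39 in wild type and -1.05 in knockouts. It had 149 to 173 reads per 10000 in set A, 109 to 131 in set B and 59.3 to 85.3 in the livers labelled Phe31. Genotype label and batch cannot be told apart in the knockouts.

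Among the 4 wild-type libraries of batches 1 and 2, of which 1 and 22 differed by less than the sampling noise, 1 library stood apart from the other 3 at 2 of 44 loci looked at, and the test used flags about 0.05 of such groups by chance. At tRNA-His-GTG-2-4, replicate 1 had 37.7 reads per 10000 against 48.5 to 50.7 in the others. At tRNA-Asp-GTC-1-5, replicate 22, which is not in set A, had 17.8 against 20.3 to 20.5. Both loci kept their call between the sets with each library left out in turn.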

How the results depend on the processing

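The count of 56 called loci stayed within 43 and 67 under other pseudocounts, filters, scalings, edgeR and voom (57 and 67), was 74 with replicate 22 as a separate sample and 56 with it averaged with replicate 1, and fell to 37 with limma without trend and to 22 with DESeq2, the 22 all being among the 56. With each library left out it was 38 to 55. With equal library totals the higher calls were 26 of 59 loci (44.1%, against 57.1%), 16 of 35 families (45.7%) and 8 of 18 anticodons (44.4%). Family calls numbered 20 (without replicate 3) to 40, and anticodon calls 13 (without replicate 24) to 22. The knockout count of 44 ranged from 30 with edgeR to 59 with no filter, and from 34 to 46 with 1 library left out.

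Joined without new scaling, the deposited values called 148 of 196 loci, all lower in set B, because size factors of separate tables are not on 1 scale. There the log2 differences of named loci turned negative at tRNA-Asp-GTC-2-1 (-0.00548), tRNA-Pro-CGG-1-1 (-0.00324), tRNA-Phe-GAA-1-4 (-0.49), tRNA-Asn-GTT-3-7 (-0.44), tRNA-Cys-GCA-3-1 (-0.13), tRNA-Glu-CTC-1-5 (-0.039), tRNA-His-GTG-2-2 (-0.57), tRNA-His-GTG-2-3 (-0.42), tRNA-Leu-TAG-2-1 (-0.21), tRNA-SeC-TCA-1-1 (-0.17), tRNA-iMet-CAT-1-1, 1-4 and 1-7 (-0.40, -0.64 and -0.63), tRNA-Arg-TCT-3-1 (-0.78), tRNA-Met-CAT-1-2 (-0.79), tRNA-Ser-AGA-2-3 (-0.78) and tRNA-Ala-AGC-2-2 (-0.79). Under every other setting but the filter at 30, where fewer loci were tested, the 56 kept their direction wherever they were tested. tRNA-Gln-CTG-2-2 was not tested with a set A liver left out. Of the 56, 18 were called in each setting that tested them.

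With 1 library left out, the difference in tRNA-Phe share, in percentage points, ranged from -16.67 to -13.30 for copy 1-5, 9.10 to 11.59 for 1-3, 9.27 to 11.74 for 1-4, -4.82 to -2.54 for 1-1, -4.75 to -0.46 for 1-2, -0.98 to -0.22 for 2-1 and -0.49 to 2.35 for 3-1. The share of low loci fell in set B for the 201 lowest of the knockout livers and for those of wild-type brain. For the 101 lowest of the knockout livers it was 0.10 points higher (exact p = 0.3), and the cause was not tested. No paired analysis was possible because the sets share no replicate numbers and the columns of set B carry none.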
